A study of Mus musculus with 4 samples.

Results

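COMPASS complexes are the enzymes that methylate histone H3 on lysine 4, a mark found at active promoters and enhancers. The 9 genes described here encode catalytic subunits (Kmt2a, Kmt2b, Kmt2c and Kmt2d), core subunits that every complex of the family shares (Ash2l, Rbbp5 and Wdr5), menin (Men1), which joins the complexes built on KMT2A and KMT2B, and UTX (Kdm6a), an H3K27 demethylase that joins the complexes built on KMT2C and KMT2D. They were taken by symbol from the gene table shared by the libraries, and all 9 of the 9 symbols were found. KMT2A and KMT2B complexes with menin act mostly at promoters, whereas KMT2C and KMT2D complexes with UTX act mostly at enhancers. Mutations in several of these genes cause neurodevelopmental syndromes in humans.

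The cells were tdTomato-positive cells sorted from the forebrain of C57BL/6 mice at P5, and single-cell 3′ libraries were made from pooled mice. Control mice were NestinCreERT2/tdTomato/Chd8+/+ and mutant mice were NestinCreERT2/tdTomato/Chd8+/F, in which 1 Chd8 allele is flanked by loxP sites, and tamoxifen was given to both genotypes in midgestation. Nestin drives the Cre in neural progenitors, so labelled cells should descend from cells that expressed Nestin at that time. There were 2 libraries of each genotype, and nothing in the labels says that a replicate number marks shared animals or a shared day. P-values between the genotypes rest on the spread between these pooled libraries, which takes in the differences between the replicates described below.

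The libraries held 5710, 5659, 2973 and 3281 cells after filtering (control replicate 1, mutant replicate 1, control replicate 2 and mutant replicate 2, the order used for all sets of 4 values), with 73584401, 71997602, 37355364 and 41308866 unique molecular identifiers (UMIs). Pairs of libraries shared 2 to 15 barcodes among these cells. The cells fell into 31 clusters, which were named from marker genes, and 13 classes with at least 20 cells in every library were compared. The labels call the cells neuronal, but excitatory and inhibitory neurons made up 22.3% of the 17623 cells. The largest class was astrocytes (5110 cells), and oligodendrocyte precursor cells (OPCs, 2476 cells), oligodendrocytes (562), microglia (362) and pericytes (569) were present as well. Defining markers were in place in these classes: Mbp stood at 3043 CPM (a gene's UMIs after scaling the total of each class and library to the same size) in oligodendrocytes and at 45.3 CPM in the next class, and Cx3cr1 at 1510 CPM in microglia and 12.4 CPM in the next class. The microglia class probably holds border macrophages too, as Pf4 was among its top genes. At a cluster resolution of 2, 267 cells were named microglia and 95 border macrophages.

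The replicate number coincided with other properties of the libraries. The matrices of replicate 1 were made with Cell Ranger 7.0.0 and those of replicate 2 with Cell Ranger 5.0.1, and the later version counts intronic reads by default. Xist, which is transcribed from the inactive X chromosome, stood at 0.15 CPM in both libraries of replicate 1 and at 1633 CPM or more in replicate 2, while the Y-linked Uty showed the reverse. Software version, sex and any other difference between the replicates therefore cannot be told apart, and each result below is given within replicates where this matters. Of the 31 clusters, 8 took over 90% of their cells from 1 replicate, and the largest cluster of astrocytes, inhibitory neurons, OPCs and pericytes differed between the replicates, whereas control and mutant cells of a replicate shared the largest cluster of every class.

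On mm10, which is the build named for the reads, GENCODE vM21 places Kmt2a (ENSMUSG00000002028) at chr9:44803355-44881296, Kmt2b (ENSMUSG00000006307) at chr7:30568858-30588726, Kmt2c (ENSMUSG00000038056) at chr5:25271798-25498783 and Kmt2d (ENSMUSG00000048154) at chr15:98831669-98871204, all on the minus strand. The core subunit genes are Ash2l (ENSMUSG00000031575) at chr8:25815996-25847694 on the minus strand, Rbbp5 (ENSMUSG00000026439) at chr1:132477365-132505659 and Wdr5 (ENSMUSG00000026917) at chr2:27515157-27536535, both on the plus strand. Men1 (ENSMUSG00000024947) lies at chr19:6334979-6340891 and Kdm6a (ENSMUSG00000037369) at chrX:18162575-18279936, both on the plus strand. Kdm6a is the X-linked member, and it belongs to the genes that partly escape X inactivation.

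The 250 bases before the start of Kmt2a and Kmt2c are shown because both transcripts fell together in oligodendrocytes (below). They were taken from RefSeq on GRCm38.p6 at chr9:44881290-44881539 and chr5:25498784-25499033, both on the minus strand, and capitals mark the GC box GGGGCGGGG, searched on both strands:
Kmt2a: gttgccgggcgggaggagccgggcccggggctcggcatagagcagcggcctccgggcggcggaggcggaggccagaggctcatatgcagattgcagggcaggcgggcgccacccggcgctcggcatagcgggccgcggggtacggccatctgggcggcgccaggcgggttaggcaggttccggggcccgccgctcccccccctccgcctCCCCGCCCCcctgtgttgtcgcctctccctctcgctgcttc
Kmt2c: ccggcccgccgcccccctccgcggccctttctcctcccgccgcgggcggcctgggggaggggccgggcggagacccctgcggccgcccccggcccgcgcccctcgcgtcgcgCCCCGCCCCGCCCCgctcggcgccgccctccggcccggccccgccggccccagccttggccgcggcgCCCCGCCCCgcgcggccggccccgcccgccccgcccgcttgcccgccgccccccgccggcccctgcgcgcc
The GC box was present in 10.4% of the 32851 promoter windows of this length. G and C made up 76.8% of the Kmt2a window and 91.6% of the Kmt2c window, against a median of 52.4% over all windows. Of the other motifs searched on both strands (CCGGAAG for ETS factors, TTTCCCGC for E2F factors, TGACGTCA for the cAMP response element, CACGTG for the E-box, TATAAA for the TATA box and CCAAT for the CCAAT box), none was in either window. The E-box was in the Kdm6a window (6.02% of all windows), and the CCAAT box was in all 3 windows of Men1 (33.8% of all windows). Ash2l and Kmt2b had no window in this table.

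The members varied moderately between classes. For each library, the level of a gene in a class was taken as log2(CPM + 1) minus that library's mean over the 13 classes, which removes differences between libraries that all classes share. The distance from the highest to the lowest class was 1.77 on this log2 scale for Kmt2c, 1.66 for Men1, 1.46 for Kmt2a, 1.28 for Wdr5, 1.17 for Ash2l, 1.10 for Rbbp5, 0.87 for Kmt2b, 0.86 for Kdm6a and 0.70 for Kmt2d. The median over 6661 genes with at least 20 CPM in every library was 1.96, so every member lay below the median gene. Kmt2d, Rbbp5, Wdr5 and Men1 are not among these genes (17.0, 15.2, 17.6 and 16.0 CPM in control replicate 1). The distance of Men1 ends in microglia, where it had few UMIs (below). Levels of different genes are not ranked here, because a 3′ UMI count depends on how each transcript's end was captured.

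**Figure D1:**
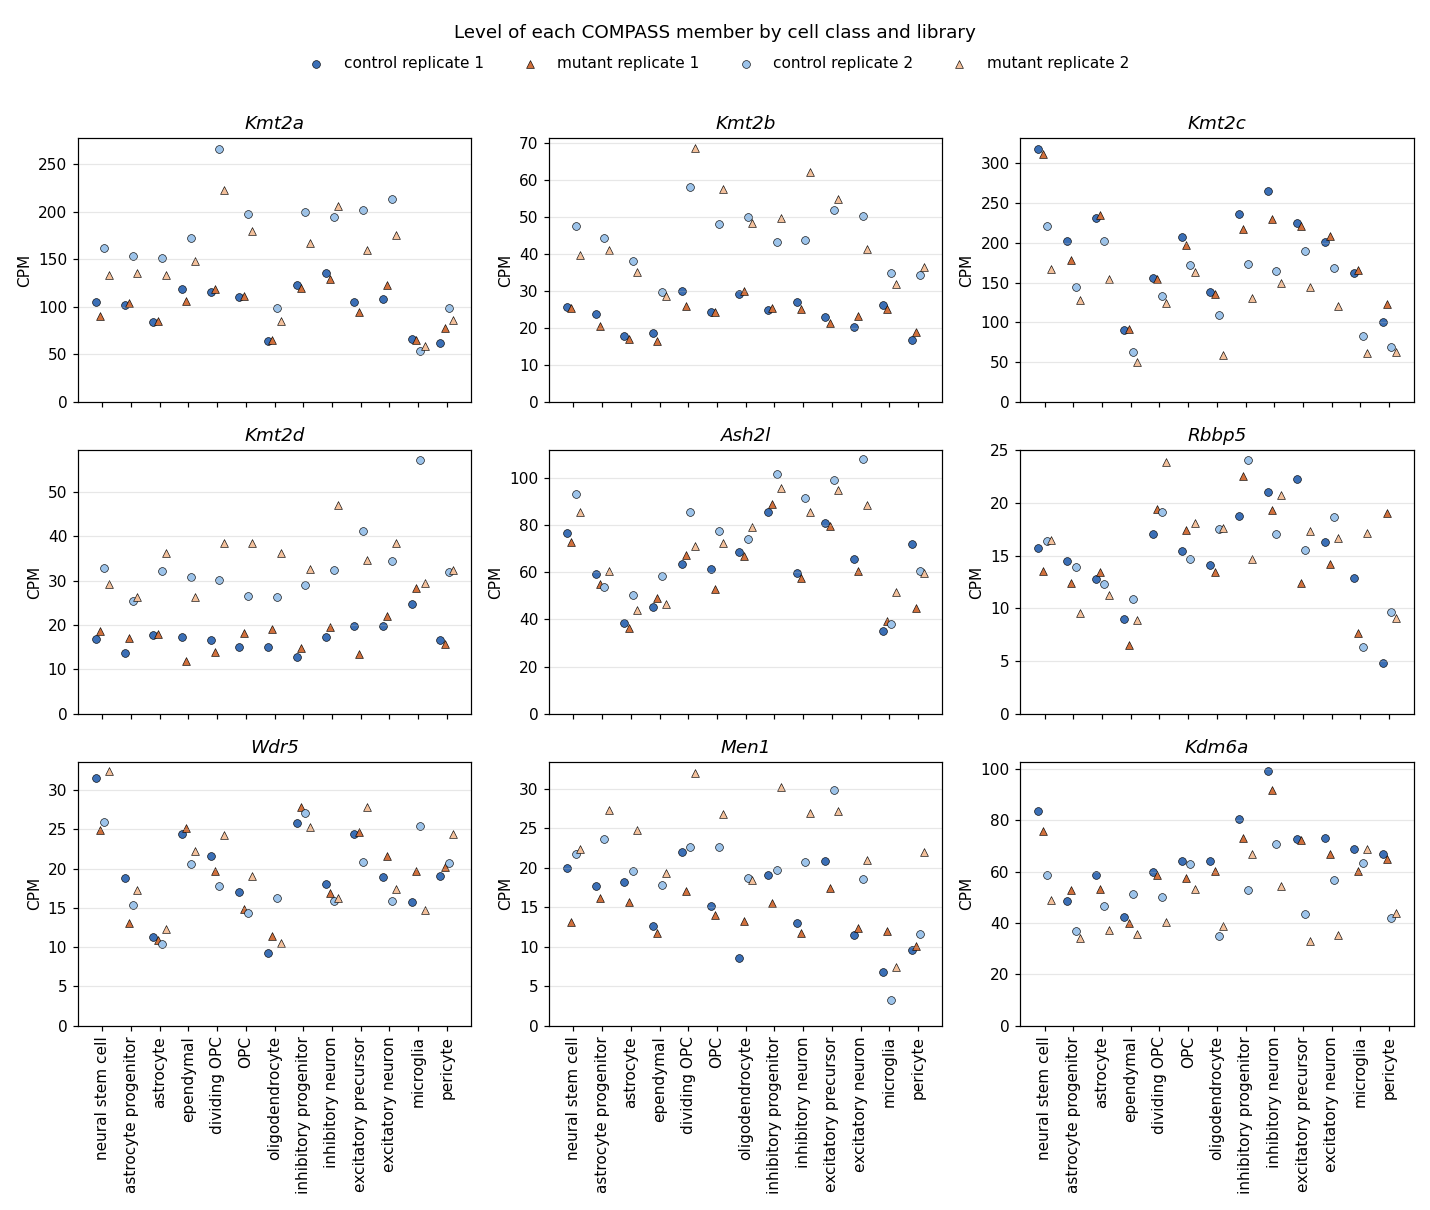
Level of each member (vertical axes, CPM from 0) in 13 cell classes, with 1 point per library: circles are control and triangles mutant libraries, dark symbols replicate 1 and light symbols replicate 2. Kmt2c was lowest in ependymal cells in each library, and the light points of Kmt2b and Kmt2d lie above the dark ones in all 13 classes.

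Kmt2c, an enhancer methyltransferase, had the widest range. In neural stem cells (the Egfr-positive class) it stood at 318, 312, 222 and 168 CPM, whereas in ependymal cells, which line the ventricles, it stood at 90.4, 91.8, 63.0 and 49.8 CPM. Neural stem cells were the highest class of Kmt2c in every library, although in mutant replicate 2 OPCs came close (164 CPM). Relative to the library mean, Kmt2c was 0.72 ± 0.07 in neural stem cells (SD, n = 4 libraries), apart from the next class, astrocytes (0.45 ± 0.12), and -1.05 ± 0.06 in ependymal cells, apart from the next lowest class, pericytes (-0.79 ± 0.17). The other neighbours in the order overlapped within 1 SD.

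Kmt2a, a promoter methyltransferase, was low in a group of 3 classes. Its level was 64.3, 65.1, 98.8 and 85.5 CPM in oligodendrocytes, 62.2, 77.3, 99.1 and 86.1 CPM in pericytes and 66.3, 65.5, 54.0 and 58.9 CPM in microglia. In dividing OPCs it was 116, 119, 266 and 223 CPM, and it was highest there in replicate 2 but in inhibitory neurons in replicate 1 (135 and 129 CPM). The step from astrocytes (-0.12 ± 0.09) down to pericytes (-0.57 ± 0.16) exceeded the SDs, and no other step in the order of Kmt2a did.

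The balance of the catalytic subunits therefore differed between classes. The ratio of Kmt2c to Kmt2a CPM, which can be compared between classes though not read as a ratio of molecules, was 3.02, 3.46, 1.37 and 1.25 in neural stem cells and 0.765, 0.866, 0.365 and 0.337 in ependymal cells. Ependymal cells had the lowest ratio of the 13 classes in every library. Astrocytes, at 2.74, 2.75, 1.34 and 1.17, and microglia, at 2.44, 2.53, 1.53 and 1.04, were near neural stem cells. Microglia were the highest class in control replicate 2, though they had only 26 and 25 Kmt2c UMIs in the libraries of replicate 2.

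Kmt2b and Kmt2d, the paralogs of Kmt2a and Kmt2c, were flatter. Kmt2b ranged from 0.39 ± 0.18 in dividing OPCs to -0.48 ± 0.13 in ependymal cells, and Kmt2d from 0.45 ± 0.45 in microglia to -0.25 ± 0.16 in astrocyte progenitors. No neighbouring classes of either gene were separated by more than their SDs. The high value of Kmt2d in microglia came with a wide spread (24.7, 28.4, 57.1 and 29.4 CPM).

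The core subunits Ash2l, Wdr5 and Rbbp5 were all higher in inhibitory progenitors than in astrocytes. Ash2l, which with RBBP5 stimulates the catalytic subunits, stood at 85.6, 89.0, 102 and 95.5 CPM in inhibitory progenitors and at 38.4, 36.2, 50.1 and 44.1 CPM in astrocytes, with no overlap between the classes. Wdr5, the scaffold that holds the complex together, stood at 25.8, 27.9, 27.1 and 25.3 CPM in inhibitory progenitors and at 11.2, 10.8, 10.4 and 12.3 CPM in astrocytes. Rbbp5 stood at 18.76, 22.55, 24.04 and 14.7 CPM in inhibitory progenitors and at 12.81, 13.41, 12.35 and 11.24 CPM in astrocytes. Its value in inhibitory progenitors of mutant replicate 2 rests on 18 UMIs. The 2 classes did not overlap for any of these genes. They were not compared in a test, and the share of all genes without overlap was not counted. Wdr5 was also high in ependymal cells (24.4, 25.2, 20.6 and 22.2 CPM), the class with the lowest mean over the 4 libraries for Kmt2c, Kmt2b, Rbbp5 and Kdm6a; of these, Kmt2c was lowest there in each library. Rbbp5 was between 4.8 and 24.0 CPM throughout, and none of its neighbouring classes were separated by more than their SDs.

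Men1 was on average lowest in microglia, where it had 19, 11, 1 and 3 UMIs. At this depth its level there is poorly known, and Men1 and Rbbp5 were the 2 members that did not pass the filter on low counts in microglia. Kdm6a was highest in inhibitory neurons in 3 of the 4 libraries, at 99.5, 92.0, 70.8 and 54.4 CPM there. Its lowest class was ependymal cells in replicate 1 (42.5 and 39.9 CPM) but oligodendrocytes and excitatory precursors in replicate 2 (35.0 and 32.8 CPM).

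The members did not follow a single pattern across classes. Over the 52 points of 13 classes in 4 libraries, Kmt2a was most like Men1 (Pearson's r = 0.74), followed by Kmt2b with Rbbp5 (0.62), and Kmt2d with Men1 was lowest (-0.32). In replicates 1 and 2, r was 0.52 and 0.83 for Kmt2a with Men1 and 0.525 and 0.72 for Kmt2b with Rbbp5. It was -0.34 and -0.33 for Kmt2d with Men1. In replicate 2 Men1 had 1 and 3 UMIs in microglia, and the weight of these points in r was not tested. Points of 1 library share its depth and preparation, so these are descriptions. Among 6660 other genes of at least 20 CPM, those most like Kmt2a were Peg3, Afdn and C130071C03Rik (r = 0.89, 0.88 and 0.87), those most like Kmt2b were Farsb, Pwp1 and Rps6kb1 (0.81, 0.81 and 0.80), and those most like Kmt2c were Gm3764, Rtn3 and Kcnc1 (0.87, 0.84 and 0.83). Kmt2d had no close match: Chd9 came first at 0.66, before Rsrp1 (0.66) and Spg21 (0.65).

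Classes were then compared with edgeR's quasi-likelihood test on UMIs summed per class and library, with library and class as terms and Benjamini-Hochberg adjustment over 15660 genes. A single fit took in all 13 classes, so its SEs and p-values rest on spread pooled over the classes of 4 libraries. It has no term for replicate differences that vary between classes, which for Kmt2a ran from -0.22 in microglia to 1.06 in dividing OPCs on the log2 scale. Neurons here were the mean of excitatory and inhibitory neurons, and glia the mean of astrocytes and OPCs. In neurons against glia, 5 of the 9 members were higher and 1 was lower, where 31.8% of all genes tested were called higher and 37.1% lower. Ash2l was higher by 0.47 ± 0.07 on the log2 scale (SE, adjusted p = 2.286e-08) and Wdr5 by 0.38 ± 0.09 (adjusted p = 0.0002445). Kdm6a (0.29 ± 0.09, adjusted p = 0.002428), Rbbp5 (0.28 ± 0.12, adjusted p = 0.03506) and Kmt2a (0.27 ± 0.07, adjusted p = 0.001033) were higher as well, and Men1 was lower (-0.31 ± 0.10, adjusted p = 0.007627). The 3 core subunits were thus all higher in the mean of the neurons than in the mean of astrocytes and OPCs. OPCs alone were near the neurons for Wdr5 and Rbbp5. The mean of Wdr5 over libraries was 16.3 CPM in OPCs and 11.2 in astrocytes. That of Rbbp5 was 16.39 CPM in OPCs and 12.45 in astrocytes, against 16.44 in excitatory and 19.55 in inhibitory neurons. Other glial classes were not part of this comparison. The mean of Wdr5 over libraries was 23.1 CPM in ependymal cells, against 16.8 in inhibitory and 18.45 in excitatory neurons. That of Ash2l was 72.1 CPM in oligodendrocytes, against 73.55 in inhibitory and 80.65 in excitatory neurons. Rbbp5 lost the call in 7 of 12 alternative analyses. In the libraries of replicate 2 alone, Wdr5, Men1 and Kdm6a were not called. Without control replicate 1 neither Men1 nor Kdm6a was called, with 3 members called in all, and without mutant replicate 1 Kdm6a was not. The median over the members was 0.27, and over all genes -0.065.

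**Figure D2:**
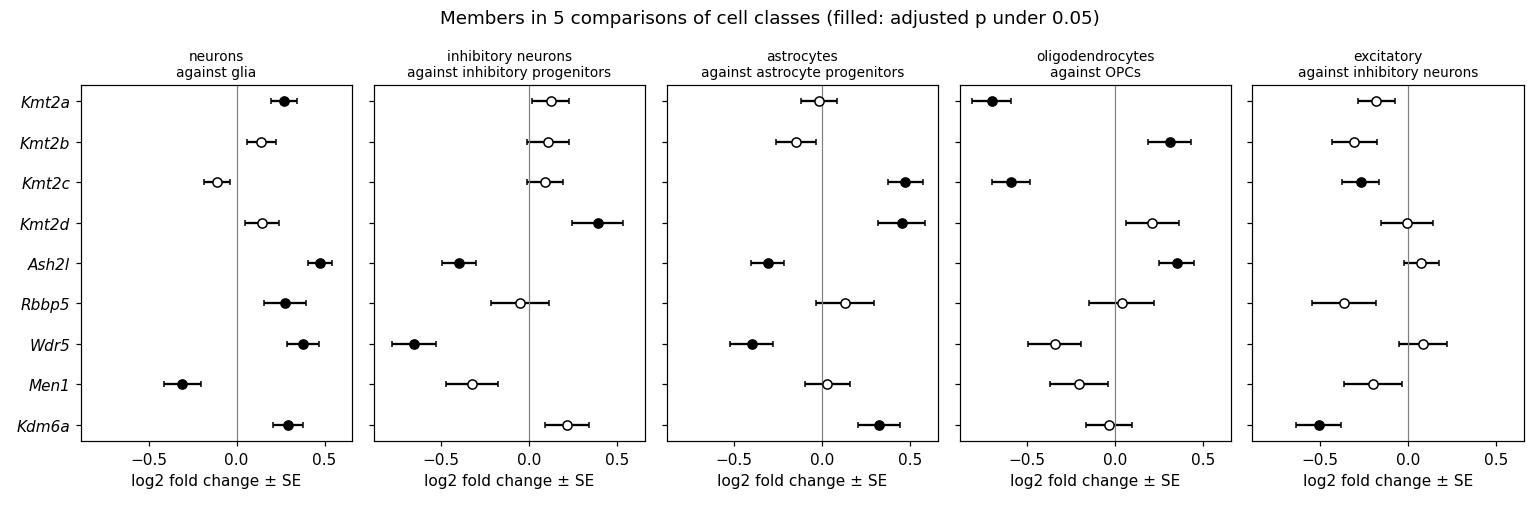
Log2 fold change of each member in 5 comparisons of cell classes (points, with bars of 1 SE), with filled points at an adjusted p under 0.05. Kmt2a and Kmt2c lie furthest to the left in oligodendrocytes against OPCs, at -0.70 and -0.59, and Wdr5 in inhibitory neurons against their progenitors, at -0.66.

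Between inhibitory neurons and their dividing progenitors, 2 of the 3 core subunits were lower in the neurons, and Rbbp5 was not called (-0.05 ± 0.16, adjusted p = 0.8257). Wdr5 was lower in the neurons, at 18.1, 17.0, 15.9 and 16.3 CPM against 25.8, 27.9, 27.1 and 25.3 CPM, and every neuron value lay below every progenitor value. The change was -0.66 ± 0.13 (adjusted p = 1.599e-05), and it was called in all 12 alternatives that gave a value. Ash2l was lower by -0.40 ± 0.10 (adjusted p = 0.0003815), and Kmt2d was higher by 0.39 ± 0.15 (adjusted p = 0.02084). Ash2l was not called in the libraries of replicate 2 alone or without control replicate 1, and Kmt2d lost its call in 6 of 12 alternatives, including each fit that left out a mutant library. So 1 member was higher and 2 were lower, where 27.4% and 26.5% of all genes were. The proliferation marker Mki67 stood at 512 CPM in the progenitors and 14.4 CPM in the neurons, and its part in these differences was not tested.

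Astrocytes against their dividing progenitors showed the same 2 core subunits lower: Wdr5 by -0.40 ± 0.12 (adjusted p = 0.006573) and Ash2l by -0.31 ± 0.09 (adjusted p = 0.006203). Kmt2c (0.47 ± 0.10, adjusted p = 0.0001392), Kmt2d (0.45 ± 0.13, adjusted p = 0.004951) and Kdm6a (0.32 ± 0.12, adjusted p = 0.02684), which encode the catalytic subunits and the demethylase of the enhancer complexes, were higher. The background was 31.1% of genes higher and 12.4% lower, with a median of 0.24 over all genes, so Kmt2c and Kmt2d lay less far above the median gene than above 0, and Kdm6a lay near it. Without TMM scaling all values moved by about -0.13, which left 2 members higher and 3 lower, and Kdm6a lost its call in 9 of 13 alternatives. Without control replicate 2, 0 members were higher and 3 lower, as Kmt2c, Kmt2d and Kdm6a lost their calls. Without control replicate 1, Ash2l, Wdr5 and Kdm6a lost theirs and 2 members were called, while leaving out mutant replicate 1 cost Ash2l its call and leaving out mutant replicate 2 those of Kmt2d and Kdm6a. In the libraries of replicate 1 alone, Wdr5 and Kmt2d were not called. Those of replicate 2 alone did not call Ash2l or Kdm6a, so neither replicate by itself called both core subunits. At the mitochondrial limit of 5%, Kmt2d and Kdm6a were not called. Mki67 again differed (759 CPM in the progenitors, 14.2 CPM in astrocytes).

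In the oligodendrocyte lineage, 2 catalytic subunits were lower in oligodendrocytes than in OPCs, and Kmt2a had the largest fold change of any member in the 5 comparisons. Kmt2a stood at 64.3, 65.1, 98.8 and 85.5 CPM in oligodendrocytes and at 110, 111, 197 and 180 CPM in OPCs, so that oligodendrocytes were lower within every library. The change was -0.70 ± 0.11 (adjusted p = 5.814e-07). Kmt2c stood at 138, 136, 109 and 59.0 CPM against 207, 198, 172 and 164 CPM, without overlap, and changed by -0.59 ± 0.11 (adjusted p = 8.642e-06). Both were called in all 12 alternatives, over ranges of -0.91 to -0.60 for Kmt2a and -0.83 to -0.39 for Kmt2c. Ash2l (0.35 ± 0.10, adjusted p = 0.002873) and Kmt2b (0.31 ± 0.12, adjusted p = 0.03145) were higher. Here 20.8% of all genes were called higher and 26.9% lower, and the median gene was at -0.12. Without TMM scaling the values moved by about -0.19, and 0 members were then higher and 4 lower; Ash2l and Kmt2b lost their calls in 4 of 12 and 8 of 11 alternatives, both of them without mutant replicate 1, which left 2 members called.

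Excitatory and inhibitory neurons differed less. No member was higher in excitatory neurons, where 18.3% of genes were, and 2 were lower, where 17.1% were. Kdm6a stood at 73.2, 66.9, 56.8 and 35.5 CPM in excitatory and 99.5, 92.0, 70.8 and 54.4 CPM in inhibitory neurons, lower in excitatory neurons within every library, with a change of -0.51 ± 0.13 (adjusted p = 0.001296). It was not called in the libraries of replicate 2 alone (adjusted p = 0.0888). Kmt2c changed by -0.27 ± 0.11 (adjusted p = 0.04032), a call that was lost in 8 of 13 alternatives, among them each fit without control replicate 1, mutant replicate 1 or mutant replicate 2, which left 1 member called.

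The other genes of the pathway were read from lists, and each count here can be set against the background of its comparison above. Of 12 other COMPASS subunits, 11 were tested, and 8 were higher and 0 lower in neurons than glia, with Setd1b, a further catalytic subunit, at 0.58 ± 0.11. In inhibitory neurons against progenitors 2 were higher and 6 lower, among them Dpy30, which binds ASH2L (-0.97 ± 0.10), and Paxip1, of the KMT2C and KMT2D complexes (-1.20 ± 0.13). Both were also lower in astrocytes than in their progenitors (-0.50 ± 0.09 and -0.60 ± 0.12), where 1 was higher and 4 lower. In oligodendrocytes against OPCs 0 were higher and 1 was lower, and in excitatory against inhibitory neurons 0 and 2.

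The 6 H3K4 demethylases, which remove the mark, were higher or not called in most comparisons. The counts were 4 higher and 0 lower in neurons against glia, 5 and 0 in inhibitory neurons against progenitors, 3 and 0 in astrocytes against progenitors, 1 and 0 in oligodendrocytes against OPCs, and 1 and 3 in excitatory against inhibitory neurons. Kdm5b had the largest changes, 2.38 ± 0.14 in inhibitory neurons and 1.26 ± 0.13 in astrocytes against their progenitors. Of the 6 genes of the PRC2 complex and the other H3K27 demethylases, 4, 3, 3, 1 and 0 were higher and 0, 3, 3, 0 and 5 lower in the same order. Each of these 2 lists holds a Y-linked gene, Kdm5d (2217, 2123, 3 and 15 UMIs over all cells) and Uty (7196, 6572, 1 and 10). Their class comparisons rest almost wholly on replicate 1. Ezh2, the H3K27 methyltransferase, was lower in inhibitory neurons (-1.22 ± 0.10) and in astrocytes (-1.71 ± 0.10) than in their progenitors, and Kdm6b, a paralog of Kdm6a, was higher in oligodendrocytes than in OPCs (1.49 ± 0.13).

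The genotypes were compared next, beginning with the targeted gene. Chd8 stood at 61.7, 68.7, 89.8 and 94.9 CPM, so that the mutant library was the higher one in both replicates. UMIs were counted over the whole gene and reads at the floxed exons were not examined, so this value does not check the labels. Over all cells, 0 of 9 members were called higher or lower in the mutant, as were 0% of the 19813 genes tested in each direction (edgeR; 10 genes higher and 5 lower at an unadjusted p under 0.05, with 0 members among them). Fold changes of the members ran from -0.20 ± 0.32 for Kmt2c to 0.10 ± 0.52 for Kmt2d on the log2 scale. This fit has no term for replicate, so its spread takes in the differences between the replicates, sex and software version among them. Differences of the size of these SEs were not detectable with it.

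**Figure D3:**
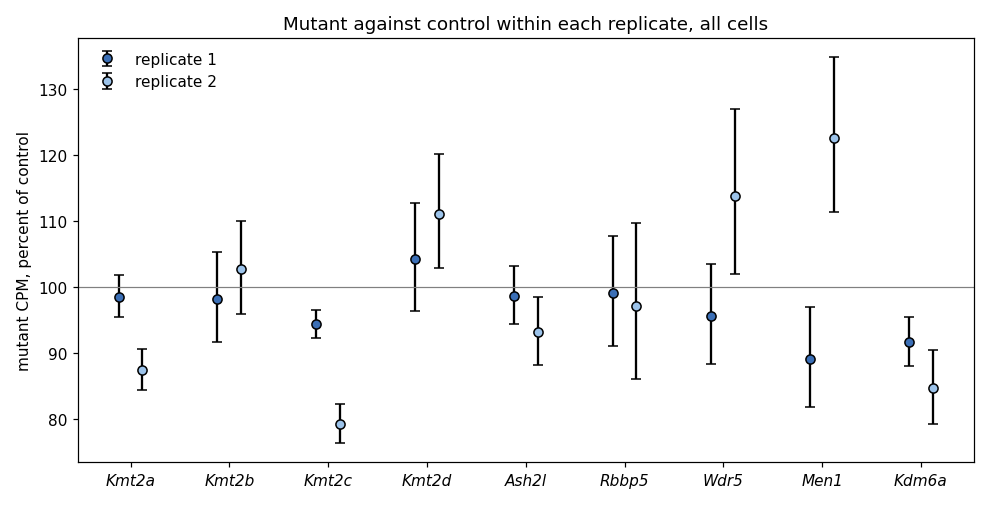
CPM of each member in the mutant library as a percentage of the control library of the same replicate, over all cells; bars are exact 95% intervals for counting error only, and the line marks 100%. Kmt2c and Kdm6a lie below the line in both replicates, and Men1 lies below it in replicate 1 and above it in replicate 2.

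Within replicates, Kmt2c in the mutant was 94.3% of control in replicate 1 (exact 95% interval 92.2 to 96.5) and 79.2% in replicate 2 (76.3 to 82.2). Kdm6a was 91.6% (88.0 to 95.4) and 84.7% (79.2 to 90.4). These intervals cover counting error only and not differences between pools of mice. All values here are over all cells, so the mix of classes enters them. In astrocytes alone, Kmt2c was 101.7% (97.78 to 105.8) in replicate 1 and 76.64% (72.45 to 81.08) in replicate 2. Kmt2a was 98.5% and 87.4%, Ash2l 98.7% and 93.2%, and Rbbp5 99.0% and 97.1%, while Kmt2d was 104% and 111%. In replicate 1 the intervals of Kmt2a (95.4 to 101.8) and Ash2l (94.4 to 103.1) included 100%. So did those of Rbbp5 (91.0 to 107.7) and Kmt2d (96.3 to 112.7). Among these genes, only the interval of Rbbp5 (86.0 to 109.7) included 100% in replicate 2. In all, 5 of 9 members were lower in the mutant library of both replicates, as were 23.0% of 16878 genes, and 1 was higher in both, as were 25.8%. Men1 went opposite ways, at 89.0% (81.8 to 96.9) and 123% (111 to 135), as did Wdr5 (95.7% and 114%) and Kmt2b (98.2% and 103%). For a single value of 2 against 2 libraries an exact permutation test cannot give a small p, and none is given.

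Within the 13 classes, 0 members were called in any class in either direction, as were 0% of genes in each class. The mutant library was lower in both replicates in 8 of 13 classes for Kmt2c and for Kdm6a, in 7 for Ash2l, 5 for Kmt2b, 4 for Kmt2a, 3 for Rbbp5, 2 for Kmt2d, 1 for Men1 and 0 for Wdr5. It was higher in both replicates in 7 classes for Kmt2d, 4 for Wdr5, 3 for Kmt2b and for Men1, 2 for Rbbp5, 1 for Ash2l and 0 for Kmt2a, Kmt2c and Kdm6a. Of all genes with at least 10 UMIs in every library of a class, 21.1% (pericytes) to 28.7% (oligodendrocytes) were lower in both replicates. Shares higher in both ran from 22.1% (oligodendrocytes) to 27.1% (pericytes). The counts of the members were taken without that limit on UMIs. The classes come from the same 4 libraries and are not separate replicates. Whether the genotype difference of a member differs between neurons and glia was tested as an interaction, and 0 of 9 members were called (values from -0.19 ± 0.25 for Rbbp5 to 0.10 ± 0.21 for Men1), as were 0% of genes.

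More members were called between the replicates than between the genotypes. In a fit with genotype and replicate as terms, 4 members were higher in replicate 2, where 21.0% of genes were, and 2 were lower, where 27.8% were. Kmt2b stood at 22.3, 21.9, 41.4 and 42.5 CPM over all cells and Kmt2d at 17.0, 17.7, 31.3 and 34.7 CPM. Each was higher in replicate 2 by 0.96 on the log2 scale (SE 0.14 and 0.15, adjusted p = 0.0001557 and 0.0002356). Kmt2a (0.63 ± 0.13, adjusted p = 0.001453) and Men1 (0.59 ± 0.17, adjusted p = 0.01252) were higher too. Kmt2c (-0.49 ± 0.13, adjusted p = 0.008416) and Kdm6a (-0.48 ± 0.13, adjusted p = 0.009342) were lower. Kmt2c, Men1 and Kdm6a each lost the call when 1 library was left out. This held for Kdm6a and Kmt2c without control replicate 1, Kmt2c without mutant replicate 2 and Men1 without mutant replicate 1. The fits without 1 library had replicate as the only term. With genotype as well, they would have kept no residual degree of freedom.

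These directions held over most classes. Kmt2b and Kmt2d were higher in replicate 2 in 13 of 13 classes, Kmt2c in 0, Kdm6a in 2, and Kmt2a and Men1 in 12, with microglia as the exception for both. Other COMPASS subunits were 3 higher and 2 lower of 12 tested, the H3K4 demethylases 0 and 1, and the PRC2 list 0 and 2. The Y-linked Kdm5d and Uty, each a member of one of these lists, account for 1 call apiece.

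**Figure D4:**
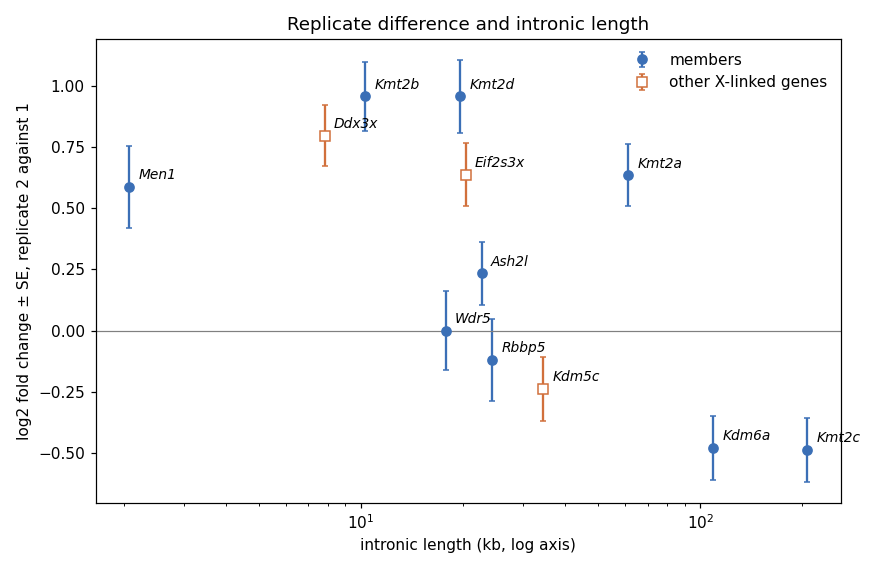
Log2 fold change of replicate 2 against replicate 1 (vertical axis, bars of 1 SE) against the intronic length of each gene in kilobases (horizontal log axis), for the 9 members (filled circles) and 3 other X-linked genes (open squares). The 2 members with the most intronic bases in total, Kmt2c and Kdm6a, are the 2 that were called lower in replicate 2.

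The total annotated intronic length of each gene is given beside these differences. Kmt2c has 206695 and Kdm6a 108979 intronic bases, the 2 largest of the members, and both were lower in replicate 2, the replicate processed with the earlier software. Kmt2b (10273), Kmt2d (19605) and Men1 (2078) were higher, but so was Kmt2a with 61272. Ash2l (22730), Rbbp5 (24365) and Wdr5 (17783) were not called, although their lengths lie near that of Kmt2d. The part of intronic counting in these differences was not tested, and it cannot be told apart from sex or other differences between the replicates.

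Kdm6a can be set beside other X-linked genes that escape inactivation at least in part. Ddx3x, an RNA helicase, was higher in replicate 2 by 0.80 and Eif2s3x, a translation factor, by 0.64 on the log2 scale, whereas Kdm5c, an H3K4 demethylase, was at -0.24 ± 0.13 (adjusted p = 0.1446) and Kdm6a was lower. Ddx3x has 7806 intronic bases, Eif2s3x 20344 and Kdm5c 34406. A comparison of Kdm6a between cells with Xist and cells with a Y-linked UMI within 1 library could not be made, because no library held 50 cells of each kind.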

How the data were processed

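Per the labels, forebrain cells of P5 mice were sorted and 4 libraries were sequenced on the 10x platform. The authors aligned reads to mm10 and deposited, for each library, unnormalized counts of UMIs by gene and barcode. The matrix headers name Cell Ranger 7.0.0 (replicate 1) and 5.0.1 (replicate 2), and the submitters' processing notes name 3.0. Following the study's filters, a barcode was kept if its UMIs lay between 2000 and 40000, if 1000 genes or more were detected, and if mitochondrial genes gave no more than 10% of its UMIs. Cells were clustered with Scanpy 1.11.5 (2000 variable genes scaled within library, 30 components, 15 neighbours, Leiden resolution 1), leaving 39 genes out, the members and related genes among them. Clusters were named from marker lists, and doublets were scored with Scrublet but removed only in an alternative. Excitatory precursors were split off after the clusters had been seen.

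Counts were summed per class and library and tested with edgeR 4.0.16 (filterByExpr, TMM, robust quasi-likelihood fits, Benjamini-Hochberg adjustment, threshold 0.05), after the code had been tested on simulated data. SEs are the fold change over the square root of F. The study corrected batches with a latent model and tested cells, and here libraries are the replicates. Named genes were the 9 members, Chd8, sex-linked genes beside Kdm6a, and the 3 genes most like each Kmt2 gene. Setd1b, Dpy30, Paxip1, Kdm5b, Ezh2 and Kdm6b were picked from the related lists as examples after their values had been seen. The members and lists were chosen with earlier results of these data known. Alternatives were DESeq2, no TMM, other filters, mitochondrial limit, resolution, doublets, single replicates, libraries left out and a replicate block. The gene annotation held 99.6% of the gene IDs.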

Additional observations from a re-analysis of the deposited data

How the results depend on the processing

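No called fold change of a member reversed under any alternative that was run. Of 749 values of single members under the alternatives, 651 stayed on their side of the threshold, 65 lost a call and 33 gained one; 62 of the 651, none of them called, changed sign. Against 6 members called in neurons against glia, 3 in inhibitory neurons against progenitors, 5 in astrocytes against progenitors, 2 in excitatory against inhibitory neurons and 4 in oligodendrocytes against OPCs, the libraries of replicate 2 alone gave 3, 1, 3, 0 and 2, and those of replicate 1 alone gave 3 in astrocytes and 4 in excitatory neurons. At least 10 counts in every sum, which tests fewer genes, gave 3 in neurons against glia, 3 in astrocytes and 2 in oligodendrocytes. DESeq2 gave 5 in inhibitory neurons, the mitochondrial limit of 5% gave 3 in astrocytes, and no TMM scaling and removal of the highest doublet scores each gave 1 in excitatory neurons; where no construction is named, the cause was not tested. Leaving out 1 library at a time gave 3 to 5, 2 to 4, 2 to 4, 1 to 3 and 2 to 4 members in these comparisons, and 4 to 6 between the replicates, against 6. At the mitochondrial limit of 5%, 11 of 13 classes kept 20 cells in every library, and oligodendrocytes against OPCs was not run. Genotype calls of members stayed at 0 under every alternative. With a replicate block, 0 members were called over all cells or in any class, while 10 genes were called higher and 0 lower over all cells, 33 and 8 in microglia, 9 and 16 in excitatory neurons, 0 and 9 in oligodendrocytes, 1 and 7 in inhibitory neurons, 1 and 4 in excitatory precursors, 1 and 2 in astrocytes and none in the other 7 classes. Same-numbered libraries deviated together (r = 0.897 over all cells, 0.607 to 0.898 in classes), and they share software version and sex, but no label says that a number marks a shared source, so the block stayed an alternative. Members in microglia and Men1, Rbbp5, Wdr5 and Kmt2d in small classes rest on few UMIs, which limits what could be detected.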
